A study of Rattus norvegicus with 8 samples.

Results

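A set of 9 genes typical of B lymphocytes were followed in lung tumor, normal lung and blood of F344 rats: Cd79a, Cd79b, Ms4a1, Cd22, Blk, Pax5, Pou2af1, Cr2 and Tnfrsf13c. A probe was taken for a gene where its RefSeq accession belonged to the rat gene of that symbol. Of the 9 genes, 6 had a probe, each 1 probe printed in 1 spot, among the 13903 named genes and 24684 probes of the Arraystar rat lncRNA array. These were Cd79b (NM_133533), Cd22 (NM_001107503), Blk (NM_001025751), Pax5 (NM_001109261), Pou2af1 (NM_001109599) and Cr2 (NM_001105989). For Cd79a, Ms4a1 and Tnfrsf13c no probe was matched, so they are not analysed here.

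All animals were male F344 rats at week 95. The 3 lung tumors came from rats treated with NNK, a nitrosamine of tobacco smoke that causes lung cancer in this strain, and were moderately differentiated adenocarcinomas in the study's methods. The 3 normal lung samples were the matched non-tumor tissue of NNK-treated rats, so both lung groups had been exposed to the carcinogen. The blood samples were 1 clot from a control rat and 1 clot from an NNK-treated rat. The question asked here was how B cell transcripts differed between tumor and matched lung, and between the blood of a treated and a control rat.

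B cells recognise antigen through a membrane immunoglobulin that is held in a complex with Cd79a and Cd79b, whose cytoplasmic tails start the signal. Src-type kinases such as Blk pass the signal on, Cd22 damps it, and Cr2, a complement receptor, strengthens it. Pax5 is the factor that keeps B cells in their lineage and is switched off when they become plasma cells, whereas Pou2af1, the coactivator that octamer-binding factors recruit at immunoglobulin promoters, is also used by plasma cells. Tissue B cells often gather in follicles, which form where the chemokine Cxcl13 is made.

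The RefSeq promoter table (GRCr8) held 4 of the 9 genes: Cd79a, Cd22, Cr2 and Tnfrsf13c. The window of Cd22 is shown because Cd22 was the only one of the 4 with a probe above background. Its part before the start site lies at chr1:95259731-95259980 on the minus strand and is written 5′ to 3′, with the letters GAGGAA, the core of sites bound by the factor Spi1, in capitals.
Cd22 promoter: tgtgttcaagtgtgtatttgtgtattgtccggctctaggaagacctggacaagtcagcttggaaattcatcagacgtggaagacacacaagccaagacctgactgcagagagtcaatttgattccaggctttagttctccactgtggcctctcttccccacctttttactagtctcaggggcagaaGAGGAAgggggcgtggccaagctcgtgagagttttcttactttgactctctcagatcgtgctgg
Both strands of each 300-base window (250 bases before and 50 after the start site) were searched for 3 motifs. The octamer ATGCAAAT, the element of Pou2af1 and its partners, matched in 0 of the 4 windows and in 595 of all 33469 promoter windows (1.778%). The Ebf1 motif, TCCC followed by any 2 letters and GGGA, matched in 0 of the 4 and in 279 of all windows (0.8336%). GAGGAA, a motif chosen after the sequences were seen, matched in 2 of the 4, in Cd22 at -64 and in Cd79a at -141 from the start site, and in 27.6% of all windows. Of the 3 motifs, only GAGGAA matched in any of the 4 windows, so no overlap of different motifs was possible. These matches are descriptions of letters only.

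Differences in lung were tested with limma on log2 signals that were quantile-normalized within the 6 lung arrays. A call needed a fold change of 2 and a Benjamini-Hochberg adjusted p of at most 0.05 over all 12471 probes tested. A probe was tested if it was well above background, by the scanner software's own mark, on at least 3 of the 6 lung arrays. Of the 6 B cell genes with a probe, 5 passed this filter and Cr2 did not. Cd79b passed only through the tumor arrays, and Blk and Pax5 passed at exactly 3 arrays each.

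The arrays of a group were not equally independent. The normal lung arrays differed from each other by 0.467 to 0.787 times the mean squared difference expected from the scatter of repeated spots within an array, and lung tumors 2 and 3 by 0.466 times. Lung tumor 1 differed from tumors 2 and 3 by 3.03 and 3.36 times, and tumors differed from normal lung by 8.35 to 12.8 times. Tumors 2 and 3 shared a scan that lung tumor 1 did not, so scan and sample cannot be told apart here. Whether such close arrays are separate samples or repeated measurements of 1 RNA was not tested, and the ratios do not decide it. The called B cell genes are therefore also given with the 3 normal arrays counted as 1 sample and tumors 2 and 3 counted as 1. In that fit normal lung is 1 sample, which is assumed to vary like the tumors, and all residual spread comes from 1 pair of tumor samples. The study describes its tumor samples as independent, each with its matched normal tissue, while the labels name no animals. The p-values from the 6 arrays measure the spread between these samples, which may be technical.

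Pou2af1 rose strongly in lung tumor, Cd22 fell, and Cd79b rose from below background, while the differences of Blk and Pax5 did not pass the test. Thus 2 of 5 tested genes were called higher and 1 lower, against 13.5% called higher and 15.5% called lower among all probes tested (13.8% and 15.8% at an unadjusted p of 0.05, at which the gene counts were the same). Cd79b could pass the filter only by differing, so its call adds nothing to this count. With probes above background on all 6 lung arrays, 2 B cell genes were left, 1 called higher (Pou2af1) and 1 lower (Cd22). Among all 10573 probes so filtered, 1190 were called higher and 1651 lower. As a description, the median log2 fold change of the 5, Cd79b included, was 1.42, compared with 0.07 over all probes. This median is the value of Pax5, which was not called, so it does not show a rise of the set. The calls ran in both directions. In tissue RNA, fewer cells of a type and less RNA per cell cannot be told apart.

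Pou2af1 had log2 signals of 11.19, 11.25 and 11.30 in normal lung 1 to 3 and of 13.77, 13.70 and 13.70 in lung tumor 1 to 3. Every tumor array lay far above every normal array, and the arrays within a group differed very little. The log2 fold change was 2.47 ± 0.056 (SE, n = 3 and 3), a 5.56-fold rise (limma, adjusted p = 4.85e-06), the rise ranking 331 among the tested probes. With near-identical arrays counted once, normal lung was at 11.25 (n = 1) and lung tumor at 13.73 ± 0.047 (SD, n = 2), and the rise was 2.49 ± 0.20 (SE, limma, adjusted p = 0.0347). The signals before normalization showed the same separation, at 2322, 2613 and 2470 in normal lung and 13509, 12291 and 12270 in lung tumor.

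Cd22, the inhibitory lectin of the B cell surface, had log2 signals of 8.99, 9.01 and 9.06 in normal lung and 7.92, 7.48 and 7.49 in lung tumor. All 6 arrays were well above background and the groups did not overlap. Cd22 fell by 1.39 on the log2 scale (SE 0.13, n = 3 and 3, limma, adjusted p = 0.000417), opposite in direction to Pou2af1. With near-identical arrays counted once the log2 fold change was -1.32, with normal lung at 9.02 (n = 1) and lung tumor at 7.70 ± 0.305 (SD, n = 2), and the call was lost (limma, adjusted p = 0.0826).

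Cd79b, the signaling partner of the antigen receptor, was above background on none of the 3 normal lung arrays and on all 3 tumor arrays. Its log2 signals were 3.51, 2.60 and 2.84 in normal lung and 5.14, 3.76 and 4.66 in lung tumor. The groups did not overlap, but the lowest tumor value was only slightly above the highest normal value. The fitted log2 fold change was 1.54 ± 0.42 (SE, n = 3 and 3, limma, adjusted p = 0.0233). Because normal lung gave only an upper bound, tumor was at least 2.36-fold higher, the tumor mean set against a floor on each normal array, which was the faintest signal marked as well above background there or the Cd79b signal itself where that was brighter. The call was lost in 7 of 17 alternatives, among them the fits without normal lung 2, normal lung 3, lung tumor 1 or lung tumor 3 (log2 fold change 1.23 to 1.47) and the one with near-identical arrays counted once (1.69, limma, adjusted p = 0.129).

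Blk, a Src-type kinase of the B lineage, had log2 signals of 3.56, 3.90 and 3.91 in normal lung and 4.55, 4.39 and 3.17 in lung tumor. It was above background on 1 of 3 normal and 2 of 3 tumor arrays, and tumor 3 was lower than every normal array. The log2 fold change was 0.25, with a 95% interval from -0.74 to 1.23 (limma, adjusted p = 0.599). Without lung tumor 1 it was -0.01.

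Pax5, the lineage factor of B cells, had log2 signals of 4.12, 1.54 and 1.44 in normal lung and 5.30, 3.83 and 2.24 in lung tumor. Normal lung 1 was higher than tumors 2 and 3, so the groups overlapped, and the probe was above background on 1 of 3 normal and 2 of 3 tumor arrays. The log2 fold change was 1.42 with a 95% interval from -1.28 to 4.13 (limma, adjusted p = 0.285). When tumor and normal lung of the same number were paired by a replicate block, Pax5 was called higher (limma, adjusted p = 0.0358). That was the only 1 of 17 alternatives to call Pax5, and the methods' paired t-test did not. Cr2 was not well above background on any of the 8 arrays, with log2 signals of 1.23 to 1.25 in normal lung and 1.28 to 1.96 in lung tumor.

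**Figure D1:**
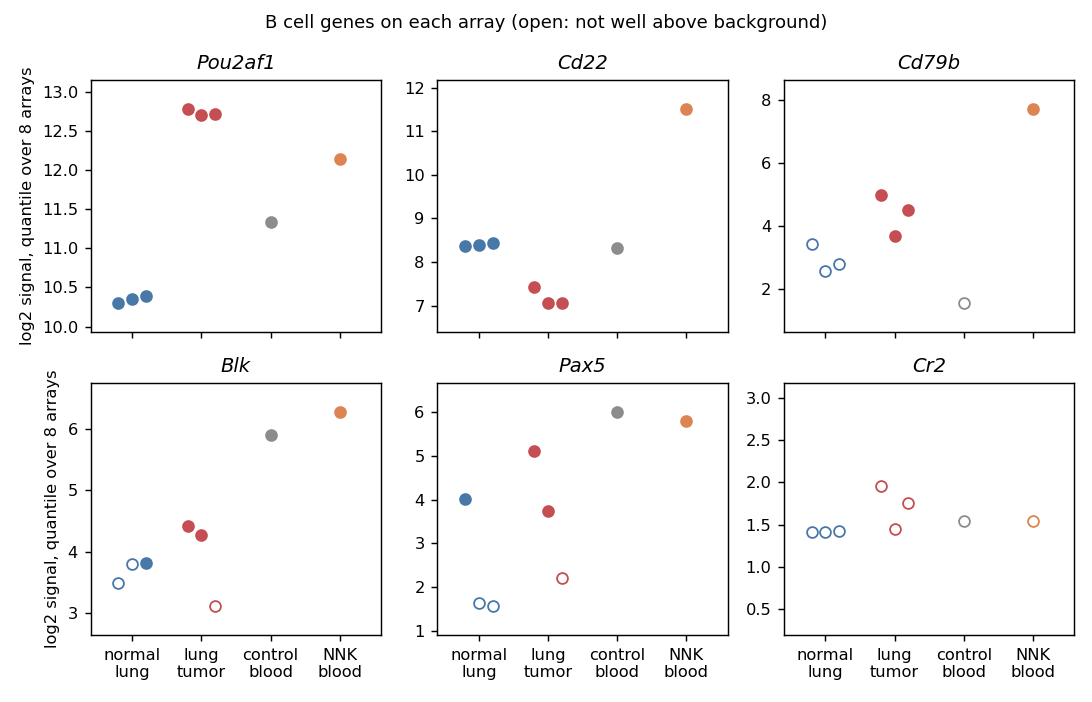
Log2 signal of the 6 B cell genes with a probe on each of the 8 arrays (y axis, quantile-normalized over all 8 arrays, ranges differ between panels), by group (x axis). Each point is 1 array and open points are arrays where the probe was not well above background. Pou2af1 was highest in the 3 lung tumors, Cd22 and Cd79b were highest in NNK blood, and Cr2 was above background nowhere.

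Lung tumor 1 had the highest log2 signal of the 3 tumors for all 5 tested genes. The same was true of 61.0% of the 11393 tested probes with a value on every tumor array. Lung tumor 1 was also the only tumor scanned together with normal lung (scan 1), whereas tumors 2 and 3 formed scan 2. Within scan 1, lung tumor 1 minus the normal lung mean was 2.52 for Pou2af1, -1.10 for Cd22, 2.16 for Cd79b, 2.94 for Pax5 and 0.76 for Blk on the log2 scale. The direction was that of all 6 arrays for each of the 5 genes. These arrays are among the 6, and lung tumor 1 was the highest tumor. The direction was therefore fixed in advance for Pou2af1, Cd79b, Pax5 and Blk, and could have differed only for Cd22. The part of the scan in the spread between tumors was not tested.

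**Figure D2:**
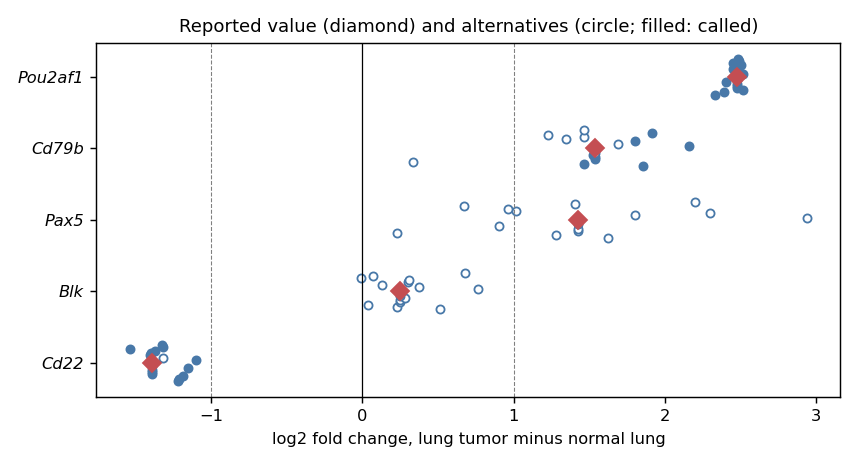
Log2 fold change between lung tumor and normal lung (x axis) of the 5 tested B cell genes (y axis). The diamond is the reported value, each circle 1 of up to 18 alternative settings, filled where the gene was called, and dashed lines mark a 2-fold change. Pou2af1 stayed between 2.33 and 2.52 and Cd22 between -1.53 and -1.10, whereas Pax5 spread from 0.23 to 2.94.

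The other genes of B cell biology were examined in 5 lists, to place these values among their functional partners. Of all probes tested, 13.5% were called higher and 15.5% lower, or 13.5% and 14.4% with outlier-marked spots kept. The counts of each list are to be read beside these shares. Of 12 other B cell surface proteins, 10 had a probe and 7 were tested, with 1 called higher and 1 lower and a median log2 fold change of 0.53. Cd24, a glycosylphosphatidylinositol-anchored protein found on B cells and also on epithelial cells, rose by 2.00 (SE 0.054, limma, adjusted p = 6.23e-06). With outlier-marked spots kept, 9 were tested and 2 called higher, the added one being Fcrl2, an Fc receptor-like protein, at 2.74 on the log2 scale (limma, adjusted p = 3.66e-06). Cd40, the receptor for T cell help, fell by 2.33 on the log2 scale (SE 0.22, limma, adjusted p = 0.000389). Cd40 lost its call with near-identical arrays counted once (-2.22, limma, adjusted p = 0.0563).

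Among 18 genes of B cell receptor signaling, 14 had a probe and 12 were tested. None of the 12 reached a 2-fold change: 0 were called in either direction by limma, 0 at an unadjusted p of 0.05 with the same fold, and 0 by the methods' t-test. At an adjusted p of 0.05 without the fold requirement, 4 of the 12 were higher and 3 lower. The share of all probes at that threshold was not computed, so these counts are not read as a feature of the list. Their median log2 fold change was -0.03. The phosphatase Ptpn6, which Cd22 recruits, had a log2 fold change of 0.89, and the adaptor Blnk one of 0.83. Btk, the kinase that acts on the phospholipase Plcg2, was not tested because its spots carried outlier marks on 2 tumor arrays. With marked spots kept it was called higher, by 1.81 on the log2 scale (limma, adjusted p = 8.9e-06).

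Of 14 B cell transcription factors, only 3 were tested and all 3 were called, against 13.5% called higher and 15.5% lower of all probes. Spi1, a factor of B cells and of myeloid cells, rose by 1.53 (SE 0.047, limma, adjusted p = 8.83e-06). Bach2, which holds back the plasma cell program, fell by 1.53 on the log2 scale (SE 0.135, limma, adjusted p = 0.000298). Ebf1, an early B lineage factor that is also made in stromal cells, fell by 1.48 on the log2 scale (SE 0.117, limma, adjusted p = 0.000192). Both falls lost their call with near-identical arrays counted once (-1.46, adjusted p = 0.0674, and -1.43, adjusted p = 0.0637, limma). A further 4 factors were lost to outlier marks. With marked spots kept, 7 factors were tested and 2 were called higher and 2 lower, against 13.5% and 14.4% of all 15803 probes tested that way, the added one being Irf4 (1.13).

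The list of the cytokines BAFF and APRIL, their receptors and the chemokines of lymphoid follicles had 14 genes, 12 with a probe and 6 tested. Of these, 3 were called higher and 1 lower, against 13.5% and 15.5% of all probes, and the median log2 fold change was 1.04. Cxcl13, the chemokine that draws B cells into follicles, had log2 signals of 8.11, 8.09 and 8.32 in normal lung and 11.40, 11.34 and 11.35 in lung tumor. The groups were widely separated, with a log2 fold change of 3.18 ± 0.080 (SE, limma, adjusted p = 5.59e-06). Tnfrsf17, the BAFF and APRIL receptor of plasma cells, rose by 2.20 (SE 0.090, limma, adjusted p = 1.85e-05). Ccl19, a ligand of Ccr7, rose by 1.77 (SE 0.116, limma, adjusted p = 9.53e-05), while Ccl21, the other ligand of Ccr7, fell by 1.84 on the log2 scale (SE 0.065, limma, adjusted p = 1.28e-05). With marked spots kept, 9 genes were tested and 4 called higher, the added one being Tnfsf13, which encodes APRIL, at 1.63 (limma, adjusted p = 1.9e-05), and the median was 0.31. Cxcr5, the receptor for Cxcl13 on B cells, was not well above background on any lung array. The probes of Cxcl12 did not move together, since the brightest had a log2 fold change of 0.31 and another one of -0.98.

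Of 9 plasma cell genes, 8 had a probe and 6 were tested. Of these, 4 were called higher and 0 lower, against 13.5% and 15.5% of all probes, and their median log2 fold change was 1.85. At an unadjusted p of 0.05 with the same fold the counts were also 4 and 0. Mzb1, a chaperone of immunoglobulin assembly in the endoplasmic reticulum, had log2 signals of 10.93, 10.86 and 11.03 in normal lung and 13.88, 13.72 and 13.73 in lung tumor. Its log2 fold change was 2.83 ± 0.078 (SE, limma, adjusted p = 6.47e-06), and the separation between the groups resembled that of Pou2af1 in size. Sdc1, a surface proteoglycan of plasma cells and of epithelium, rose by 2.62 (SE 0.159, limma, adjusted p = 7.31e-05). Cd38, a surface enzyme of plasma cells and other leukocytes, rose by 2.04 (SE 0.111, limma, adjusted p = 4.87e-05), and Derl3, which takes part in degrading misfolded proteins of the endoplasmic reticulum, by 1.67 (SE 0.078, limma, adjusted p = 2.81e-05). Xbp1, the factor that drives secretion, had a log2 fold change of 0.92 and Prdm1, the factor that turns off the B cell program, one of -0.67, and neither reached 2-fold. With marked spots kept, 8 were tested and 5 called higher, against 13.5% of all probes, Fkbp11 (1.79) being added. With near-identical arrays counted once, the genes of the 5 lists called without marked spots kept their call in 10 cases, Cd40, Bach2 and Ebf1 being the exceptions (limma, adjusted p = 0.0347 to 0.0471). The lists were described by counts and medians only, and no test compared them with each other.

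**Figure D3:**
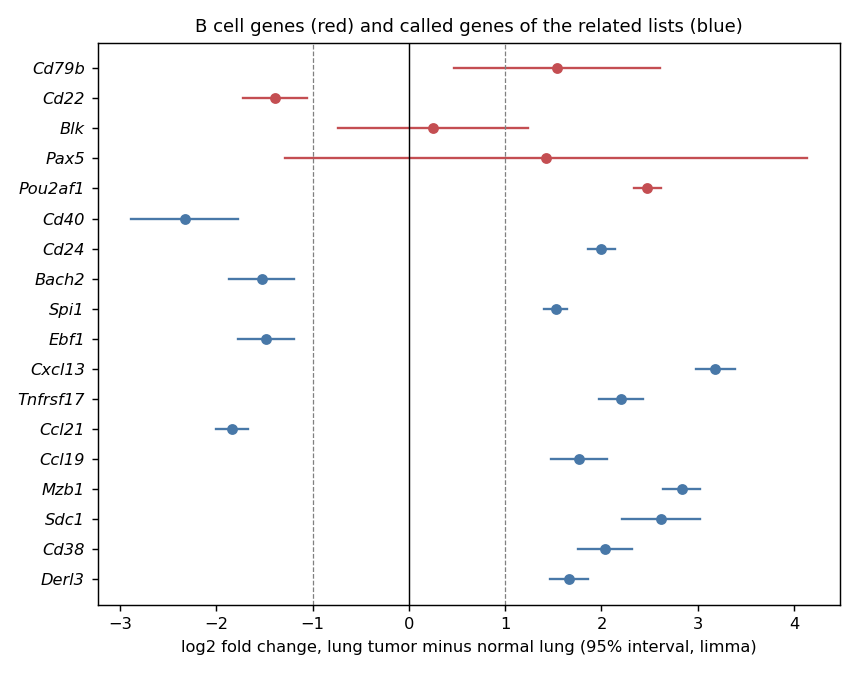
Log2 fold change of lung tumor minus normal lung (x axis) with its 95% interval from limma for the 5 tested B cell genes (red) and for the called genes of the 5 related lists (blue, up to 4 a list). Dashed lines mark a 2-fold change. The intervals of Blk and Pax5 include 0, and Cxcl13 and Mzb1 lie furthest to the right.

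Markers of other cells moved between the same arrays, and their part in the B cell values was not tested. The shares of all probes were again 13.5% called higher and 15.5% lower, or 13.5% and 14.4% with marked spots kept. Of 15 T cell markers, 12 were tested and 3 were called lower (Cd247, Zap70 and Cd8a) and 0 higher, with the same counts at an unadjusted p of 0.05. Summed signals, here and in blood, kept outlier-marked spots and included probes that were not tested. The summed T cell signal was 36524 to 38243 in normal lung and 19072 to 21674 in lung tumor, and Cd4 was above background on no lung array. Of the 5 tested red cell markers 4 were called lower, with summed signals of 220009 to 228365 in normal lung and 130885 to 139180 in lung tumor. Neutrophil markers were called lower in 2 of 4 tested, and their sum went from 14979 to 15819 down to 3628 to 4469, with Ltf at background throughout. That sum was set mostly by S100a8, which was not tested because of outlier marks. Of 5 tested macrophage markers 0 were called, also at an unadjusted p of 0.05, with sums of 163086 to 172983 and 175520 to 208022, and Cd163 and Marco were at background. Platelet markers were called lower in 3 of 4 tested, although their summed signal was 4999 to 5318 in normal lung and 7862 to 9142 in lung tumor. This sum was set mostly by Pf4, which was not tested because it was outlier-marked on every lung array. With marked spots kept, Pf4 had log2 signals of 11.92 to 12.04 in normal lung and 12.87 to 13.10 in lung tumor. Of 6 tested markers of type 2 alveolar cells, the surfactant-making cells of the lung, 0 were called. At an adjusted p of 0.05 without the fold, 4 were higher and 2 lower, a count for which no share of all probes was computed. With marked spots kept, Sftpc was called higher (1.14), as was Cd14 of the macrophage list (1.64), and 4 of 6 neutrophil markers were called lower. The summed signal of type 2 alveolar markers was 1012955 to 1054079 in normal lung and 1188991 to 1213681 in lung tumor. The summed signal of the 6 B cell probes was 2896 to 3088 in normal lung and 13517 to 14287 in lung tumor, a sum set mostly by Pou2af1. The share of bright spots with an outlier mark was also higher on tumor arrays (15.9% to 25.3%) than on normal lung arrays (4.92% to 8.62%), while no spot of a B cell gene carried such a mark.

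In blood, where each group was 1 array, no test was possible and values were compared by fold change alone after quantile normalization of both arrays together. Of the 6 B cell genes, 5 were above background on at least 1 blood array. Cd79b and Cd22 were at least 2-fold higher in NNK blood, none was 2-fold lower, and Blk, Pax5 and Pou2af1 differed by less than 2-fold. This is 2 of 5 against 23.1% of all 14452 probes compared that were 2-fold higher and 19.1% that were 2-fold lower. After a 75th percentile shift the count was again 2 of 5, against 22.3% higher and 25% lower. Cd79b was above background only in NNK blood, where it was high, so its place in these counts adds nothing. With probes above background on both arrays only, Cd22, Blk, Pax5 and Pou2af1 were left, and 1 B cell gene was at least 2-fold higher (Cd22). The share of all probes under that filter was not computed. The median log2 fold change was 0.75 for the 5 genes, Cd79b included, and -0.11 for all probes compared.

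Cd79b was not well above background in control blood, with a log2 signal of 1.95, and was at 6.14 in NNK blood, which makes it at least 5.99-fold higher. Cd22 had log2 signals of 6.46 in control and 8.53 in NNK blood, a log2 fold change of 2.06, so Cd22 went up between the blood samples and down between the lung groups. Pou2af1 was at 8.38 and 9.13, a log2 fold change of 0.75, which is under 2-fold. Blk was at 5.09 and 5.32, and Pax5 at 5.15 and 5.02, the only one of the 5 that was lower in NNK blood, by -0.13 on the log2 scale. With a 75th percentile shift in place of quantile normalization, Pax5 was 0.15 higher. Cr2 was not well above background on either blood array.

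**Figure D4:**
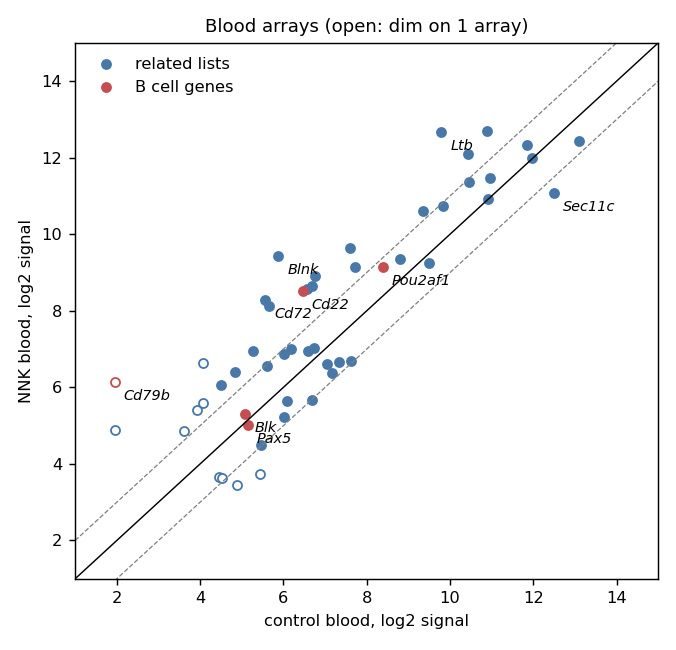
Log2 signal of B cell genes (red) and of the 5 related lists (blue) in control blood (x axis) and NNK blood (y axis), each from 1 array and quantile-normalized over both. The solid line marks equal signal, dashed lines a 2-fold difference, and open points probes well above background on only 1 of the arrays. Cd79b and Cd22 lie above the upper dashed line, and Pou2af1, Blk and Pax5 between the dashed lines.

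The partner genes in blood also lay mostly above the diagonal. Over all 14452 probes compared, 23.1% were 2-fold higher and 19.1% lower, or 22.3% and 25% after the 75th percentile shift. The counts of transcription factors and plasma cell genes given below were near these shares. Of 8 other B cell surface proteins compared, 6 were at least 2-fold higher and 0 lower, with a median log2 fold change of 2.08, led among genes above background on both arrays by Cd72 (2.71), an inhibitory receptor of B cells, and Cd24 (2.46). Of 14 receptor signaling genes 6 were 2-fold higher and 0 lower, with a median of 0.73, led by Blnk (3.56) and Vav1 (2.04), the latter an exchange factor shared with T cells. Of 8 transcription factors 2 were 2-fold higher and 2 lower, with Ebf1 at 1.55 and Bach2 at -1.02. Of 9 genes of the BAFF, APRIL and follicle list 4 were 2-fold higher and 1 lower, led by Ltb (2.88), the lymphotoxin subunit made by lymphocytes, and Cxcr4 (1.82). Of 8 plasma cell genes 2 were 2-fold higher and 1 lower, with a median of 0.04. The 75th percentile shift changed these counts to 4 higher and 1 lower for receptor signaling (median 0.28, Dok3 being the lower one) and to 3 higher and 1 lower for the transcription factors (median -0.03), and left the other 3 counts as they were. Among the plasma cell genes, the largest differences of genes above background on both arrays were those of Sec11c (-1.42), a subunit of the signal peptidase, and Derl3 (-0.79). The 2 plasma cell genes counted as higher, Prdm1 and Sdc1, were above background only in NNK blood. The same was true of Cd40, Spib and Tnfrsf17 in the other lists. Of the genes counted as lower, Irf8 and Ccr7 were above background only in control blood.

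Markers of other blood cells differed between the same arrays as well. The shares of all probes are again 23.1% higher and 19.1% lower, or 22.3% and 25% after the 75th percentile shift. Of 13 T cell markers compared, 9 were 2-fold higher and 0 lower in NNK blood, with a median of 1.97, and their summed signal was 35861 in control and 40055 in NNK blood. Cd6, among the 9, was above background only in NNK blood. Of 6 neutrophil markers 4 were 2-fold higher (summed signal 15582 and 72462), and of 6 macrophage markers 3 were (5937 and 12150). Of 5 platelet markers 3 were 2-fold lower (153724 and 88446), and of 5 red cell markers 0 differed by 2-fold in either direction (1480157 and 1441651). With the 75th percentile shift the counts were 9 higher and 2 lower for T cell markers (median 1.65), 3 and 0 for neutrophil, 2 and 0 for macrophage, 0 and 4 for platelet and 0 and 4 for red cell markers (median -1.41), so the red cell count depended on the scaling. The median spot signal before normalization was 11.8 in control and 32.02 in NNK blood. The part of cell makeup and of array brightness in the B cell values of blood was not tested.

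**Figure D5:**
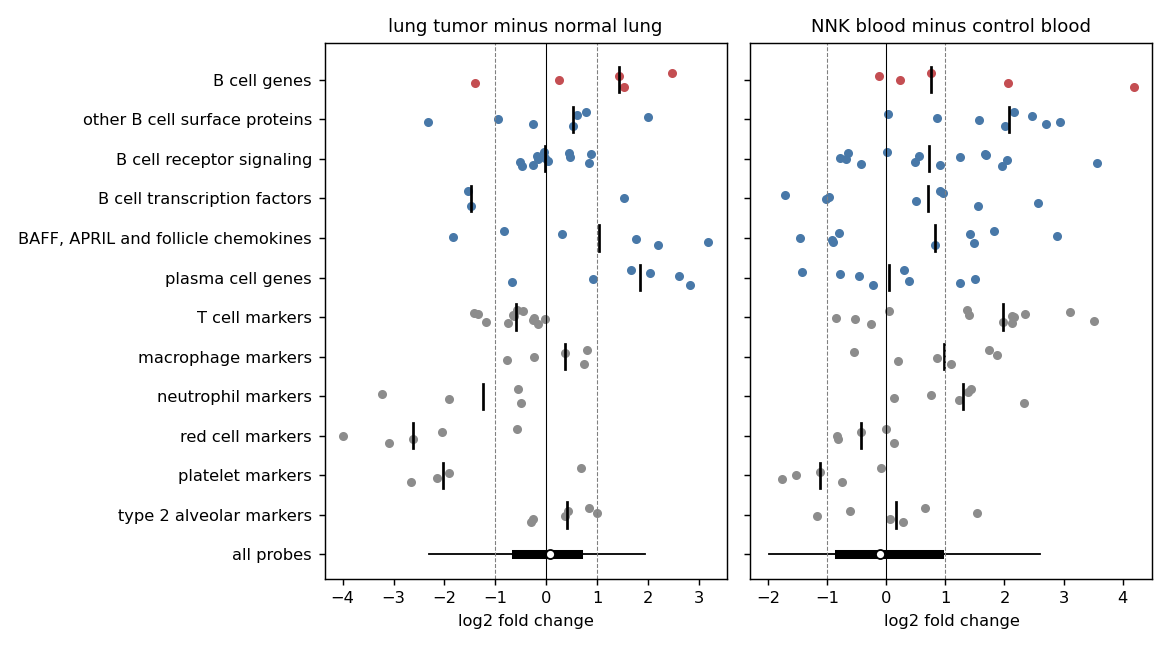
Log2 fold changes (x axis) of the tested genes in lung (left) and the compared genes in blood (right), 1 point per gene and 1 line per list, B cell genes in red, related lists in blue and markers of other cells in grey. Black bars are list medians, dashed lines a 2-fold change, and the bottom line gives the 5th, 25th, 50th, 75th and 95th percentiles of all probes. In lung the plasma cell list has the highest median (1.85) of the 12 lists, and in blood the other B cell surface proteins do (2.08).

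Over all 4 groups, levels were put on 1 scale by quantile normalization over the 8 arrays. Pou2af1 was lowest in normal lung (mean log2 signal 10.35), then came control blood (11.34), NNK blood (12.14) and lung tumor (12.73). This order was the same after a 75th percentile shift, but before any normalization both blood arrays (242 and 736) were far below the lung arrays. Whether normal lung or blood had the higher level of Pou2af1 therefore depended on the scaling, while lung tumor was above both blood arrays on each scale. For Cd22 the order of control blood and lung depended on the scaling, while NNK blood was above lung tumor on each scale. NNK blood was above normal lung in Cd22 after either scaling, but before normalization its signal of 502 lay within the normal lung range of 472 to 517. On the quantile scale Cd22 was at 7.18 in lung tumor, 8.32 in control blood, 8.39 in normal lung and 11.52 in NNK blood. Control blood and normal lung were too close to be put in order, and after the 75th percentile shift they changed places. Cd79b was at or below background in control blood (1.54) and normal lung (2.93), which gives these no order, and at 4.39 in lung tumor and 7.73 in NNK blood.

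Blk was at 3.70 in normal lung and 3.93 in lung tumor, which overlapped, and higher in control blood (5.91) and NNK blood (6.28). Pax5 was at 2.41 in normal lung and 3.69 in lung tumor, again overlapping, and at 5.80 in NNK and 6.0 in control blood, an order that turned under the 75th percentile shift. Of the 5 genes, only Pou2af1 thus had its highest level in lung tumor on this scale, while Cd22, Cd79b, Blk and Pax5 were highest in a blood sample.

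The genes whose pattern over the 8 arrays was closest to the mean of the 5 B cell genes were sought among 6074 named probes. Likeness was the root mean square difference of log2 signals, each probe centred on its own mean. The closest were Map2k4, a kinase upstream of Jnk (0.338), Ints13, a subunit of the Integrator complex (0.343), Hectd2 (0.361), Leprotl1 (0.364) and Bmyc (0.376). The mean of the B cell genes was highest on the NNK blood array, 2.30 above its average over the 8 arrays, followed by lung tumor 1 (0.55), and lowest on normal lung 2 (-1.05). This mean joins genes of unlike pattern, since Pou2af1 was highest in lung tumor and Cd22 lowest there. It includes Cd79b in control blood at 1.54, not well above background, and no mean without Cd79b was computed. The likeness values thus describe this mean and not a pattern shared by the 5 genes.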

How the data were processed

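RNA of 8 tissue or blood samples was measured on 1-colour Agilent arrays. The authors deposited scanner intensities per spot from Agilent Feature Extraction 10.5.1.1, background-subtracted and not normalized between arrays, and their own log2 values, quantile-normalized over 8 arrays. The description of the NNK clot repeats that of a lung tumor, but its title, source and tissue say blood, so it was used as blood.

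Log2 processed signals of 42136 spots were quantile-normalized within the 6 lung and within the 2 blood arrays (R 4.3.3, limma 3.58.1). Outlier-marked spots were left out, except from the summed signals, and spots of a probe averaged. A probe counted as above background if over 50% of its spots did. The lung filter left 15803 probes, of which 12471 had at least 2 values per group. Of 15323 mRNA probes 14274 were named through RefSeq accessions of GRCr8. A gene with several probes took the brightest. The number of arrays limits the precision.

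The members and lists were chosen with earlier results of these data known. All members were named, up to 4 called genes per related list in lung (largest change), and up to 2 per list in blood. Btk, Irf4, Fcrl2, Tnfsf13, Fkbp11, Dok3, Ptpn6, Blnk, Xbp1, Prdm1, Cxcr5 and Cxcl12 and the single markers of other cells were added after their values were seen. So were Spib, Irf8 and Ccr7, and the blood remarks on Cd40, Tnfrsf17, Sdc1 and Prdm1. The study describes tumor and normal tissues as matched, and sample titles number both in the same way, so equal numbers were taken as pairs. Deviations of same-numbered arrays correlated at 0.14, -0.04 and 0.16. On simulated data (11359 probes, 200 changed) limma recovered 53% of log2 changes of 1 and 82% of changes of 2. The simulated arrays were independent, with the spread within groups of these arrays, which may be technical. These shares therefore do not apply to differences between animals. Recovery meant the right direction at an adjusted p of at most 0.05, without the fold requirement. With the fold requirement, 3 unchanged probes were called. The 200 changed probes were fewer than those called in the data, 1683 higher and 1929 lower. Alternatives were other normalizations, background corrections, filters, tests and left-out arrays.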

Additional observations from a re-analysis of the deposited data

How the results depend on the processing

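The count of B cell genes called higher in lung tumor, reported as 2, was 1 with the normexp background correction (offset 50), with probes above background on all 6 lung arrays only, with the methods' t-test and with near-identical arrays counted once, and 1 to 2 with each array left out. With the replicate block, which pairs tumor and normal lung of the same number, it was 3 (Pax5 added) and no other B cell call changed. The count called lower was 0 with near-identical arrays counted once and 1 with each array left out. The median log2 fold change of the 5 genes was 0.23 with the normexp correction and 0.67 to 1.80 with each array left out. Pou2af1 kept its direction and call in all 18 alternatives. Blk went from -0.00947 (without lung tumor 1) to 0.68 (without lung tumor 3) with each array left out. In blood, the count at least 2-fold higher was 1 with probes above background on both arrays only, which leaves Cd79b out. Over all probes, 1683 were called higher and 1929 lower, against 967 and 1256 with normexp, 778 and 976 with near-identical arrays counted once, and 1080 higher with the methods' paired t-test. Where a smaller set of probes or arrays does not show it, the cause was not tested. Signal close to background limits Cd79b, Blk, Pax5 and Cr2.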
